A study of Mus musculus with 26 samples.

Results

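The genes described here are 7 of the 55401 genes counted in mouse MII oocytes and 1-cell embryos: the proprotein convertases Furin, Pcsk5, Pcsk6 and Pcsk7, the plasminogen activators Plat (tissue type) and Plau (urokinase type), and the protease inhibitor Serpine2. They were chosen by symbol, through the Ensembl identifier of each row and the GENCODE vM21 annotation, and all 7 were found. They were chosen with earlier results of these libraries known, among them the low Plat level of embryos, so the levels and fold changes below describe the genes, and the adjusted p-values, each taken over all genes of its fit, are no independent evidence.

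The study asked how blocking c-Myc or RNA polymerase II transcription alters the RNA of the 1-cell embryo, and 26 libraries in 5 groups were used. The first numbered series held 7 libraries of embryos cultured with 10058-F4, an inhibitor of c-Myc, and 7 of control embryos. Culture with 10058-F4 lasted 10 h from 2 h after sperm and oocytes were mixed (no source used here gives the dose). The second numbered series held 4 libraries of alpha-amanitin embryos, 4 of control embryos and 4 of unfertilised oocytes arrested at metaphase II (MII, age 0 h). Alpha-amanitin, an inhibitor of RNA polymerase II, was given at 100 µg/ml for 10 h from 1 h after mixing. All embryos carried the label of 10 h of age, were made by in vitro fertilisation and were of the strain B6D2F1xB6D2F1 (F2), and the oocytes came from superovulated B6D2F1 females 8 weeks old. For both inhibitors, 10 h of culture from the labelled start runs past the labelled age of 10 h. The labels do not resolve this, so equal ages of treated and control embryos rest on the age label alone. The labels name no separate donors, matings or days for the libraries, so each p-value measures only the spread between libraries, which may be technical. They also do not state how many embryos or oocytes went into a library, so every number of embryos, controls or oocytes below counts libraries. Library totals were 20566278 to 27266040 counts in the first series and 5371602 to 31540627 in the second, the lowest and the highest both in alpha-amanitin embryos.

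Proprotein convertases are serine proteases of the secretory pathway that cut precursors of growth factors, receptors and matrix enzymes after pairs of basic residues. Furin is anchored in the membrane of the trans-Golgi network and cycles to the cell surface, Pcsk7 is likewise membrane-anchored, and Pcsk5 and Pcsk6 also act outside the cell. Plasminogen activators convert plasminogen to the protease plasmin, and Serpine2 (protease nexin 1) blocks thrombin and both activators. In the mouse oocyte, Plat mRNA is a classical stored message: it is kept with a short tail and is polyadenylated and translated when meiosis resumes.

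Reference sequences of Furin, Plat and Plau are shown first. RefSeq promoter windows (GRCm38.p6, 250 bases before to 50 after an annotated start) were found for 5 of the 7 genes, in 6 windows, but not for Plat or Plau. Furin has both of the following, printed 5′ to 3′ on its own (minus) strand with TATAAA or TTTATA, and GGGCGG or CCGCCC, in capitals. They are given because the inhibitor acts on c-Myc, whose textbook binding letters are CACGTG.
Furin, chr7:80405387-80405686: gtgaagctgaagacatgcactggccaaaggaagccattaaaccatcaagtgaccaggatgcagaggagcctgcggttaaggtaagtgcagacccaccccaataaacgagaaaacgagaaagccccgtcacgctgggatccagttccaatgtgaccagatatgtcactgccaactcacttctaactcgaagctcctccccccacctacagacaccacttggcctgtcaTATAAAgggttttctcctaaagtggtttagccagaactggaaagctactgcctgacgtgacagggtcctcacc
Furin, chr7:80402763-80403062: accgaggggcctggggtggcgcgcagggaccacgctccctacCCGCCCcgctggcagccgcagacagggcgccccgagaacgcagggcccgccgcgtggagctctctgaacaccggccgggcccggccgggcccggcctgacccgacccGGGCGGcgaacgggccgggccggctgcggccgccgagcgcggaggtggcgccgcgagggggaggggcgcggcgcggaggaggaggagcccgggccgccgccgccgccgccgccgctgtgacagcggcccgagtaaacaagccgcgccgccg
The first window has a GC content of 51.3% and TATAAA 23 bases before the start, and the second a GC content of 82.3% and 2 GC-box matches, against a median of 52.7% GC over all 32851 windows. CACGTG, which reads the same on both strands, was in 0 of the 6 windows and in 7.2% of all windows, GGGCGG or CCGCCC in 35.7% and TATAAA or TTTATA in 13.6%. In the printed windows no matches of these motifs overlap.

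The ends of the 3′ untranslated regions are shown because cytoplasmic polyadenylation of stored oocyte mRNA is directed by U-rich letters near the poly(A) signal, here searched for as TTTTAT or TTTTAAT on the transcript strand in the last 100 bases (GENCODE vM21, GRCm38). The capitals below mark these letters in Plat and Plau, and the poly(A) signal ATTAAA in Furin.
Plat, chr8:22782754-22782783 (plus strand): taTTTTAATctattttagtttttactttgt
Plau, chr14:20843323-20843352 (plus strand): atTTTTATttatatctatTTTTATaattct
Furin, chr7:80389203-80389232 (minus strand): ggttttaaagtgATTAAAcgtgcagactat
In Plat, TTTTAAT began 89 bases from the transcript end and AATAAA 29 bases from it. In Furin, the transcript searched (Furin-201) had neither U-rich motif in its last 100 bases. The annotated gene reaches further downstream, to 80388585, and that stretch was not searched. The motifs were in 18.4% of the 14970 genes with such an end, so their presence in Plat, Plau and Pcsk7 is a description only.

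Furin (ENSMUSG00000030530; GRCm38 chromosome 7, 80388585 to 80405436, minus strand, counted over 9178 bases of exon) was, also per length, the convertase with the highest level, and the only one of the 4 that the edgeR tests called in any comparison. In the 10058-F4 embryos it ranged from 414 to 537 CPM (counts per 1000000 counts of the library; totals were adjusted by the trimmed mean of M-values, TMM), with a median of 469 CPM, against 114 to 174 CPM with a median of 132 CPM in their controls. The groups did not overlap: the lowest treated library was above the highest control. Means were 464 ± 43.7 CPM in 10058-F4 embryos and 137.5 ± 21.5 CPM in controls (SD, n = 7 each), a 3.41-fold higher level on the fitted scale (log2 fold change 1.77, SE 0.09, edgeR quasi-likelihood adjusted p = 6.22e-12). By its p-value, Furin ranked 4 of the 13003 genes tested. Furin and Plat were the 2 of the 7 genes called higher in this comparison, in which 6.82% of all genes tested were called higher and 10.9% in either direction.

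In the second series Furin was at 109, 122, 69.8 and 113 CPM in the alpha-amanitin embryos, against 162, 158, 112 and 161 CPM in their controls. Replicate 3 was the lowest library of each group, and the control replicate 3, at 112 CPM, lay within the treated range. The log2 fold change was -0.49 (SE 0.20) and did not pass the threshold (edgeR adjusted p = 0.549, unadjusted p = 0.0263). None of the 7 genes was called between alpha-amanitin and control embryos, where 4 of 13133 genes were called at all, or 0.0305% (0.0228% higher and 0.00761% lower). For that comparison edgeR found 986 genes at an unadjusted p under 0.05, and DESeq2 called 123, none of the 7 among them.

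MII oocytes held 349, 333, 292 and 295 CPM of Furin, above every library of alpha-amanitin and control embryos. The controls of the second series had a mean of 148 ± 24.3 CPM, against 317 ± 28.2 CPM in oocytes (SD, n = 4 each), which is -1.11 on the log2 scale (SE 0.20; adjusted p = 0.00329 by edgeR). Alpha-amanitin embryos, at 103.5 ± 23.1 CPM (SD, n = 4), were likewise below oocytes (log2 fold change -1.60, SE 0.21, edgeR adjusted p = 0.000127). Furin and Plat were the 2 of the 7 genes called lower in each of these comparisons, against 1.78% of all genes called lower between control embryos and oocytes (1.11% higher, 2.89% in either direction) and 1.27% between alpha-amanitin embryos and oocytes (0.442% higher, 1.71% in either direction). These 3 groups share libraries, so the comparisons are not independent of each other.

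**Figure D1:**
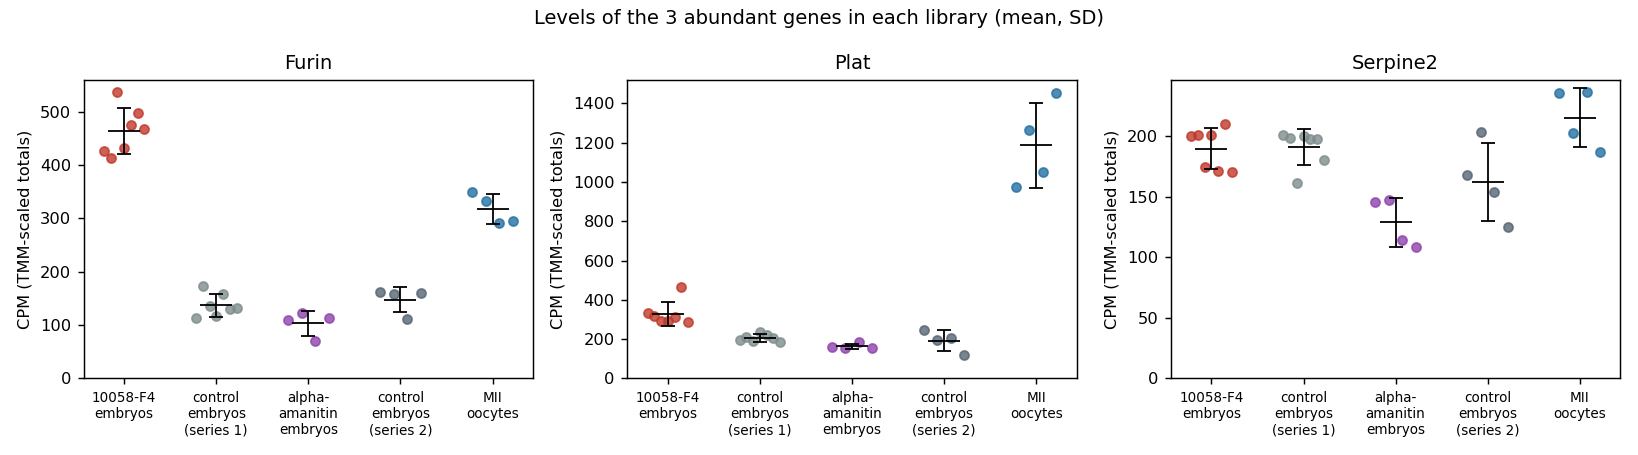
Levels of Furin, Plat and Serpine2 in each of the 26 libraries (CPM, linear axis from 0), with the mean and SD of each group as bars. All 7 libraries of 10058-F4 embryos lie between 414 and 537 CPM of Furin, above their controls at 114 to 174 CPM. For Plat, all 4 libraries of MII oocytes lie above every library of embryos.

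Beside the oocytes, the 10058-F4 embryos had the higher Furin level: 414 to 537 CPM, against 292 to 349 CPM in MII oocytes, or 146% of the oocyte mean. The corresponding shares of the oocyte mean were 32.6% in alpha-amanitin embryos, 43.4% in first-series controls and 46.7% in second-series controls. The 10058-F4 embryos and the oocytes belong to different numbered series, so their difference was not tested. The control embryos of the series can be set against each other: for Furin, second-series controls differed from first-series controls by 0.11 on the log2 scale (SE 0.15, edgeR adjusted p = 0.785). None of the 6 tested genes of the 7 was called in that comparison, in which 4.27% of all genes were called (1.54% higher in second-series controls and 2.73% lower).

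The difference between the effects of the inhibitors was tested in 1 fit of the 22 embryo libraries. For Furin, the 10058-F4 effect minus the alpha-amanitin effect was 2.26 on the log2 scale (SE 0.21, edgeR adjusted p = 1.35e-07), which ranked 1 of 15790 genes by p-value. For Plat it was 0.90 (SE 0.22, edgeR adjusted p = 0.0357). These were the 2 of the 7 genes called, against 0.678% of all genes called in this direction, 0.367% in the other and 1.04% in either. The Plat call was lost in 14 of the 22 fits that left out 1 library (adjusted p 0.00291 to 0.0843), among them 6 of the 7 first-series controls, 3 of the 7 10058-F4 embryos, 3 of the 4 second-series controls and 2 of the 4 alpha-amanitin embryos. The inhibitors also differed in series and start of treatment, and these cannot be told apart from the compound.

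Pcsk5, which processes TGF-beta family precursors and other secreted proteins (ENSMUSG00000024713; chromosome 19, 17432319 to 17837632, minus strand), was low in all groups. It ranged from 6.27 to 15.6 CPM in 10058-F4 embryos, with a median of 12.2 CPM, against 6.20 to 23.7 CPM with a median of 14.4 CPM in their controls. It was at 20.3, 7.83, 13.2 and 9.89 CPM in alpha-amanitin embryos, against 2.85, 18.9, 13.6 and 8.82 CPM in their controls and 7.91, 12.2, 9.49 and 15.8 CPM in oocytes. Every pair of compared groups overlapped. The log2 fold change was -0.33 (SE 0.29) with 10058-F4, 0.25 (SE 0.89) with alpha-amanitin and -0.05 (SE 0.88) between control embryos and oocytes, with edgeR adjusted p of 0.601, 0.998 and 1.

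Pcsk6 (PACE4, ENSMUSG00000030513; chromosome 7, 65861734 to 66050386, plus strand), which with Furin processes Nodal in the mouse embryo, was also low. It had a median of 3.82 CPM in 10058-F4 embryos (1.63 to 8.77) and 3.59 CPM in their controls (0.771 to 11.2), which is -0.09 on the log2 scale (SE 0.52; adjusted p = 0.956 by edgeR). In alpha-amanitin embryos it was at 8.74, 1.08, 0 and 22.7 CPM, against 0, 3.46, 3.07 and 1.69 CPM in controls and 7.79, 3.69, 0.676 and 4.16 CPM in oocytes. The treated values spread over the whole range of the other groups, and the log2 fold change of 2.01 had an SE of 1.81 (edgeR adjusted p = 0.998).

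Pcsk7 (ENSMUSG00000035382; chromosome 9, 45906497 to 45929726, plus strand), known for shedding the transferrin receptor, was the convertase whose low counts separated a pair of groups. Its median was 8.57 CPM in 10058-F4 embryos, with replicate 7 at 0 and the highest at 14.2 CPM, against 4.05 CPM in controls (1.36 to 10.8). That difference did not pass the threshold (log2 fold change 0.77, SE 0.63, edgeR adjusted p = 0.556). In the second series it was at 9.86, 0, 0 and 3.68 CPM in alpha-amanitin embryos, at 1.46, 0.42, 0 and 0 CPM in controls, and at 7.79, 5.16, 11.8 and 5.01 CPM in oocytes.

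Every control library of the second series thus had less Pcsk7 than every oocyte library. The edgeR test did not call it (log2 fold change -3.99, SE 2.25, adjusted p = 0.511), and limma voom did (-5.69, adjusted p = 0.0409). In that comparison limma voom called 940 of all genes, against 380 by edgeR. First-series controls, of the same labelled age, had more Pcsk7: the log2 difference of second-series from first-series controls was -3.41 (SE 1.45, edgeR adjusted p = 0.202). Pcsk7 exons overlap 415 bases of Rnf214 on the opposite strand, and Rnf214 averaged 125 to 185 CPM in the 5 groups. No source used here gives the strand setting of the authors' counting, so reads of the overlap may have been counted to either gene. They also overlap 108 bases of Tagln, which averaged 8.26 CPM in second-series controls through 1 library at 33.1 CPM.

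**Figure D2:**
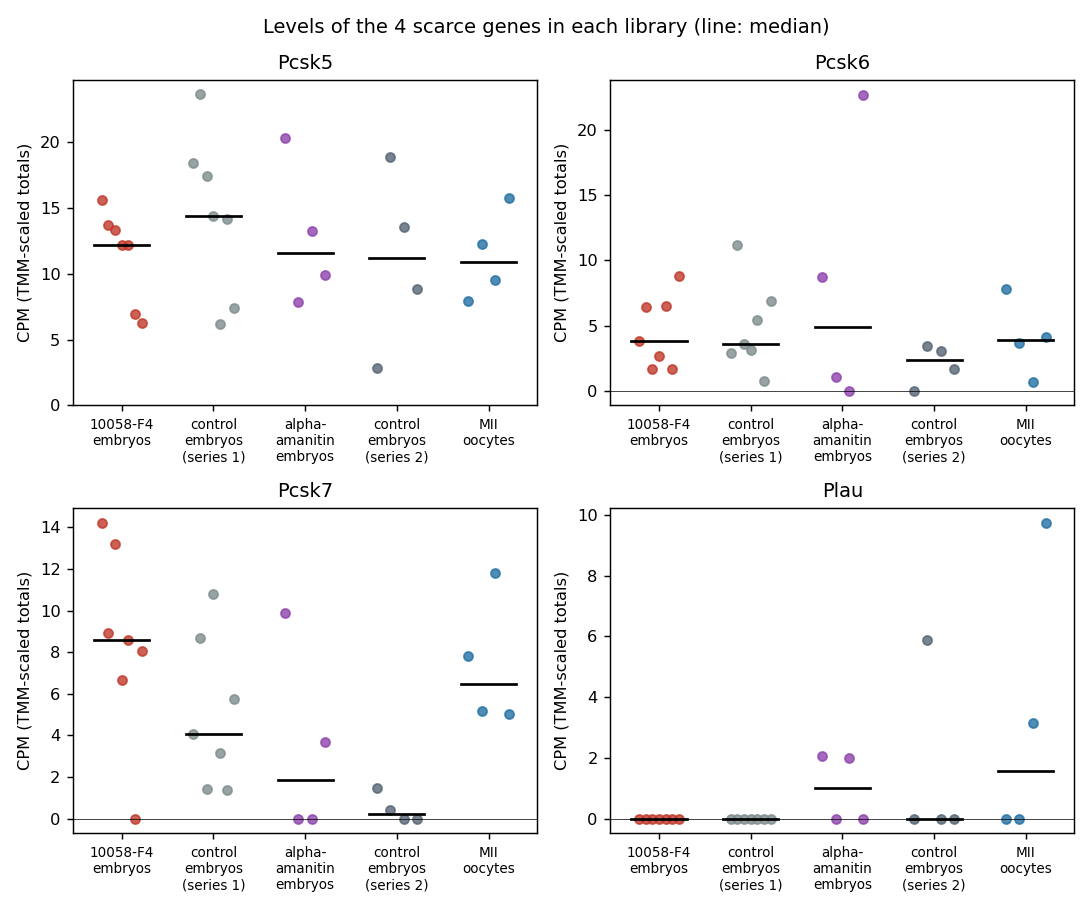
Levels of Pcsk5, Pcsk6, Pcsk7 and Plau in each of the 26 libraries (CPM, linear axes from 0), with a line at each group's median. Pcsk5, Pcsk6 and Pcsk7 stay under 25 CPM in every library, and Plau is at 0 in all 14 libraries of the first series.

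Plat (ENSMUSG00000031538; chromosome 8, 22757727 to 22782844, plus strand, 6241 bases of exon) was highest in oocytes and far lower in every embryo group. Oocytes held 976, 1264, 1053 and 1453 CPM, while alpha-amanitin embryos held 162, 153, 184 and 157 CPM and their controls 248, 195, 207 and 119 CPM. The embryo groups overlapped each other and neither overlapped the oocytes. Plat fell in control embryos to 192 ± 54.1 CPM, against 1186 ± 216 CPM in oocytes (SD, n = 4 each), a 6.20-fold lower level (log2 fold change -2.63, SE 0.20, edgeR adjusted p = 1.67e-07, rank 4 of 13133 genes by p-value).

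The fall of Plat was also present in embryos treated with alpha-amanitin, with a mean of 164 ± 13.6 CPM (SD, n = 4) and a level 7.15-fold lower than in oocytes (log2 fold change -2.84, SE 0.20, edgeR adjusted p = 1.06e-07, rank 2). Alpha-amanitin and control embryos did not differ beyond their spread (log2 fold change -0.21, SE 0.19, edgeR adjusted p = 0.998). With 10058-F4, Plat ranged from 289 to 465 CPM with a median of 313 CPM, against 183 to 238 CPM with a median of 205 CPM in controls. Every treated library was above every control, and the mean was 328 ± 62.5 CPM in 10058-F4 embryos and 206 ± 19.3 CPM in controls (SD, n = 7 each). The log2 fold change was 0.69 (SE 0.10, edgeR adjusted p = 3.82e-05), 1.61-fold, and without replicate 7 of the treated embryos, the highest library, it was 0.58. The 10058-F4 embryos were at 27.7% of the oocyte mean, and Plat, unlike Furin, lay below the oocyte range in all 7 of their libraries.

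Plau (ENSMUSG00000021822; chromosome 14, 20836660 to 20843385, plus strand), the urokinase-type activator, was scarce and unevenly detected. No count fell on it in any library of the first series, where 3 counts over a group would be 0.018 CPM in 10058-F4 embryos and 0.0187 CPM in controls. In the second series it was at 2.06, 0, 2.0 and 0 CPM in alpha-amanitin embryos, at 0, 5.87, 0 and 0 CPM in controls and at 0, 0, 3.15 and 9.75 CPM in oocytes. Its presence in 5 of these 12 libraries did not follow the groups, and no comparison called it. The gap between the control embryos of the series rested on 1 library (mean log2(CPM + 1) higher by 0.70 in second-series controls, two-sided exact permutation p = 0.364, where the smallest possible is 0.00303).

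Serpine2 (ENSMUSG00000026249; chromosome 1, 79794197 to 79861180, minus strand, 8287 bases of exon) had counts in every library, and none of the 6 comparisons called it in its own edgeR fit. It ranged from 171 to 210 CPM in 10058-F4 embryos with a median of 200 CPM, against 161 to 201 CPM with a median of 197 CPM in controls. The groups overlapped almost wholly. The log2 fold change was 0.00 with an SE of 0.08 (edgeR adjusted p = 0.989), so the interval of about 2 SE on either side holds neither the Furin nor the Plat change. Alpha-amanitin embryos were at 145, 147, 114 and 108 CPM, against 167, 203, 154 and 125 CPM in controls and 235, 203, 236 and 187 CPM in oocytes.

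In Serpine2, all 4 libraries of alpha-amanitin embryos lay below all 4 of oocytes. The means were 128.6 ± 20.3 CPM in alpha-amanitin embryos and 215 ± 24.5 CPM in oocytes (SD, n = 4 each). The edgeR test did not call this difference (log2 fold change -0.72, SE 0.20, adjusted p = 0.0825), while DESeq2 (-0.70, adjusted p = 0.0198) and an edgeR fit of all 26 libraries (-0.73, adjusted p = 0.00156) did. Over all genes, DESeq2 and that fit called 516 and 859, against 225 in the main edgeR fit. Alpha-amanitin embryos set against their own controls gave -0.31 (SE 0.20, edgeR adjusted p = 0.924), and controls set against oocytes gave -0.42 (SE 0.20, edgeR adjusted p = 0.359).

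**Figure D3:**
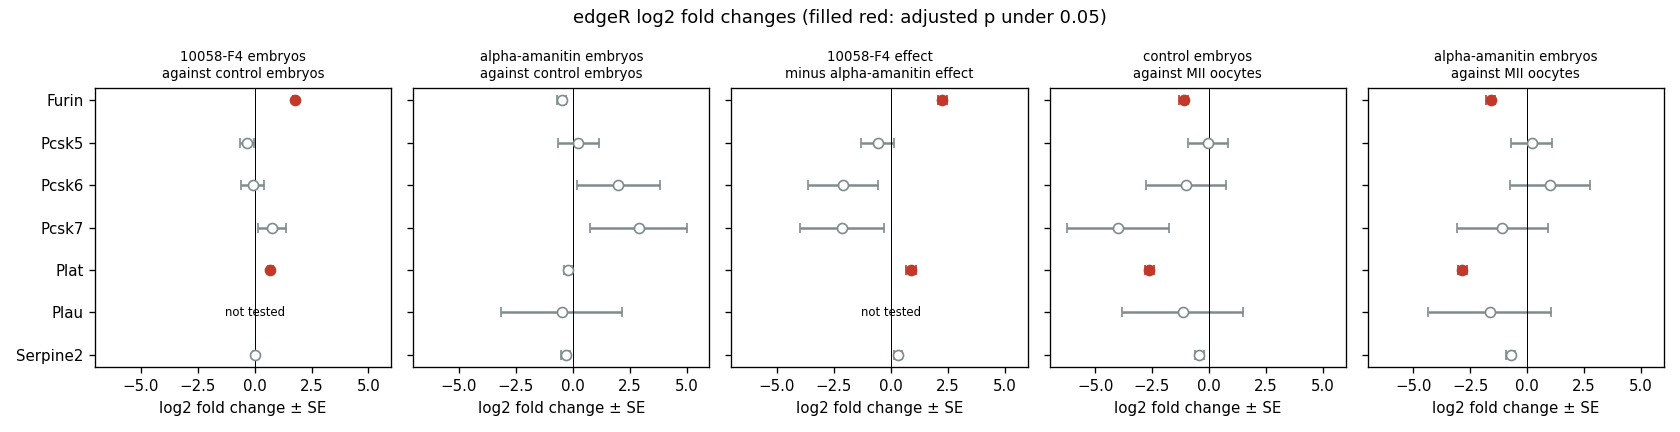
Log2 fold changes of the 7 genes in 5 comparisons, each the first-named group over the second, with bars of 1 SE from the edgeR fit; red filled points have an adjusted p under 0.05. Furin (1.77) and Plat (0.69) are to the right of 0 with 10058-F4, and both are to the left of 0 in the comparisons with oocytes.

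Since longer transcripts give more fragments, levels of different genes were set side by side per kilobase of exon. In MII oocytes Plat stood apart at 190 ± 34.5 CPM per kb, above Furin at 34.6 ± 3.07 and Serpine2 at 26 ± 2.95 CPM per kb, and the other 4 genes were each under 1.5 CPM per kb. In 10058-F4 embryos Plat (52.6 ± 10.0) and Furin (50.6 ± 4.76 CPM per kb) did not differ beyond their spread, and Serpine2 followed at 22.9 CPM per kb. In first-series controls the order was Plat, Serpine2 and Furin, at 33.0 ± 3.09, 23.0 ± 1.8 and 15.0 ± 2.35 CPM per kb. The same order of means held in alpha-amanitin embryos (26.3, 15.5 and 11.3 CPM per kb) and in second-series controls (30.8 ± 8.67, 19.6 ± 3.91 and 16.1 ± 2.64 CPM per kb), where Serpine2 and Furin lay within their spread.

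The spread between libraries differed among the genes. In the fit of the first series, the biological coefficient of variation was 0.132 for Furin, 0.141 for Plat and 0.119 for Serpine2, against 0.389, 0.671 and 0.788 for Pcsk5, Pcsk6 and Pcsk7 and a median of 0.341 over all genes tested. In the second series it was 0.238, 0.223 and 0.239 for Furin, Plat and Serpine2, and 1.84 for Pcsk7 and 2.79 for Plau, against a median of 0.898. A missed call among the low genes does not show that their levels were equal.

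The other proprotein convertases were nearly all absent. Pcsk1, the convertase of endocrine granules, had no count, Pcsk4, a germ cell convertase, averaged 0.326 CPM in first-series controls and 0 in all other groups, and 2 of the 5 listed genes passed the count filter with 10058-F4. Of these, Mbtps1 (site-1 protease, which activates SREBP and ATF6 membrane-bound factors) rose to 63.0 ± 15.0 CPM in 10058-F4 embryos, against 34.9 CPM in controls (log2 fold change 0.87, edgeR adjusted p = 0.000453). With alpha-amanitin Mbtps1 was at 51.75 CPM, against 22.6 CPM in controls, and was not called (1.22, SE 0.46, edgeR adjusted p = 0.524). Its 10058-F4 effect minus its alpha-amanitin effect was -0.34 (edgeR adjusted p = 0.754). With 10058-F4, 1 of 5 tested genes for convertase helpers and trafficking fell, beside 4.08% of all genes called lower and 10.9% in either direction. It was Pacs1, a sorting adaptor that returns Furin to the trans-Golgi network, at 56.4 CPM in 10058-F4 embryos and 80 CPM in controls (log2 fold change -0.49, edgeR adjusted p = 0.0059).

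Among the partners of the activators, Plaur, the urokinase receptor, averaged at most 0.906 CPM in any group, and plasminogen itself (Plg) 2.29 to 8.64 CPM. With 10058-F4, 1 of 8 tested genes of plasminogen activation beyond the 7 rose: Lrp1, an endocytic receptor that clears complexes of activators with their inhibitors, was at 267 ± 35.4 CPM in treated embryos and 199 ± 42.4 CPM in controls (log2 fold change 0.44, edgeR adjusted p = 0.0165). The median log2 fold change of the 8 was 0.40, and that of all genes tested was 0; 6.82% of all genes were called higher, so 1 of 8 is near the background.

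Precursors that convertases cut moved with 10058-F4 in 1 direction where they were called. Of 7 tested TGF-beta family precursors 2 rose and none fell (median log2 fold change 0.26), and of 23 tested other substrates 8 rose and none fell (median 0.40), beside 6.82% of all genes called higher, 4.08% called lower and a median of 0. Gdf9, an oocyte growth factor that is cut from its precursor before it acts on cumulus cells, was at 1978 ± 310 CPM in 10058-F4 embryos, against 420 ± 115 CPM in controls (log2 fold change 2.25, edgeR adjusted p = 4.81e-11). Its relative Bmp15 was at 1227 CPM in treated and 1392 CPM in control embryos and was not called (-0.17, edgeR adjusted p = 0.245). Bmp6 rose by 0.54 on the log2 scale, to 247 CPM against 172 CPM in controls (edgeR adjusted p = 0.000423).

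Among the other substrates, the called genes with the smallest p-values were Adam10, Zp1, Adam9 and Itga6. Adam10, a membrane sheddase, was at 150 CPM in 10058-F4 embryos and 79.1 CPM in controls (log2 fold change 0.94, edgeR adjusted p = 5.37e-06). The zona pellucida gene Zp1 (1.20, adjusted p = 0.000451), the sheddase Adam9 (0.91, adjusted p = 0.000503) and the laminin receptor subunit Itga6 (0.40, adjusted p = 0.00163) rose as well, by edgeR on the log2 scale. Nodal, a substrate shared by Furin and Pcsk6, averaged no more than 0.00575 CPM in any group.

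In the second series, edgeR called 0 genes of these lists between alpha-amanitin and control embryos, beside 4 of all 13133 genes (0.0305%). DESeq2 called 123 of all genes, and its calls within the lists were not counted. Uncalled log2 fold changes there were 0.66 for Gdf9, 0.70 for Adam10 and -0.42 for Itga6 (edgeR adjusted p = 0.524 each). Between control embryos and oocytes 1 of 7 TGF-beta family precursors and 5 of 24 other substrates fell and none rose, beside 1.78% of all genes called lower and 1.11% higher. The median log2 fold change was -0.04 for the precursors, -0.61 for the other substrates and -0.03 for all genes. Gdf9 was at 322 ± 89.6 CPM in control embryos, against 2073 ± 158 CPM in oocytes (log2 fold change -2.69, edgeR adjusted p = 6.49e-08), and Adam10 at 55.1 CPM in control embryos, against 164 CPM in oocytes (-1.58, adjusted p = 0.000548). The egg coat gene Zp2 was lower by 1.65 and Zp3 by 2.09, and the sheddase Adam17 by 1.15, on the log2 scale. Bmp15 was at 1836 CPM in control embryos and 1874 CPM in oocytes (-0.04, edgeR adjusted p = 0.991).

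Alpha-amanitin embryos were lower than oocytes in 1 of 7 precursors and 3 of 24 other substrates: Gdf9 (-2.03, edgeR adjusted p = 2.2e-06), Zp2 (-1.52, adjusted p = 0.000132), Itga6 (-0.89, adjusted p = 0.0039) and Zp3 (-1.71, adjusted p = 0.0126). Of all genes, 1.27% were called lower and 0.442% higher, and the median log2 fold change was 0.21 for the precursors, -0.64 for the other substrates and -0.04 for all genes. Where the effects of the inhibitors were subtracted, 1 of 8 tested precursors was called, Gdf9 (1.60, edgeR adjusted p = 0.000493). Of 27 tested other substrates 1 was called, Itga6 (0.83, edgeR adjusted p = 0.012), and no gene of the other pathway lists beyond Furin and Plat. The shares over all genes were 0.678% called higher and 1.04% in either direction. Series and start of treatment cannot be told apart from the compound here either.

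**Figure D4:**
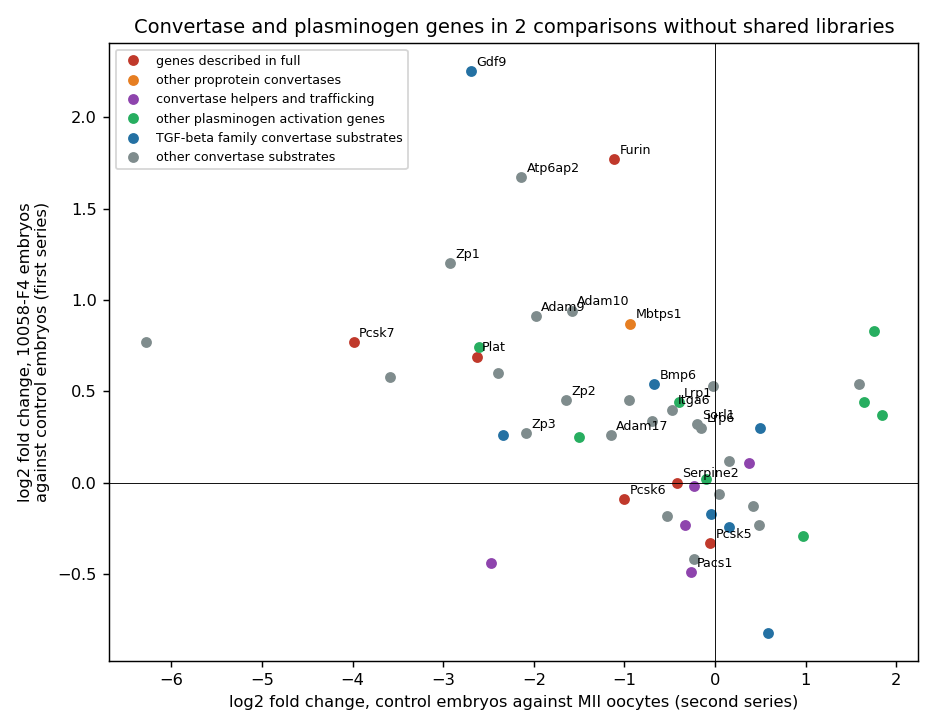
For the 50 genes of the 7 and the pathway lists that were tested in both comparisons, the log2 fold change of control embryos over MII oocytes (x axis) is set against that of 10058-F4 embryos over their controls (y axis). Furin is at -1.11 and 1.77, Gdf9 at -2.69 and 2.25, Plat at -2.63 and 0.69; the axes use different libraries.

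The genes with the most similar pattern were taken over the 26 libraries by Pearson's r of log2(CPM + 1), as a description across libraries that share groups and series. For Furin they were the laminin subunit gene Lamc1 (r = 0.953), the cadherin gene Fat1 (r = 0.953) and Tmem201 (r = 0.943). For Plat they were the laminin subunit gene Lamb1 (r = 0.907), the ubiquitin ligase gene March7 (r = 0.888) and the cystine transporter gene Slc7a11 (r = 0.887). Serpine2 was nearest to Drg2 (r = 0.813), Gpt2 (r = 0.813) and Oacyl (r = 0.782). For Pcsk5, Pcsk6 and Pcsk7 the highest r was 0.73 with Cul1, 0.769 with Fam114a2 and 0.732 with Golm1. By Spearman's rho, 1 of the 3 nearest genes was shared for Furin, Plat, Pcsk5 and Pcsk6 each, and 0 for Serpine2 and Pcsk7.

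The labelled cell types were checked with marker genes. All 15 oocyte markers had counts in every group. Their summed level was 9790 to 11700 CPM in 10058-F4 embryos, against 6680 to 8680 CPM in controls, the same direction as Furin. Of the 15, 7 were called higher and none lower, beside 6.82% of all genes called higher and 4.08% lower. The widest gaps in CPM were those of Gdf9 (1978 against 420 CPM) and H1foo (1772 against 566 CPM). The markers did not move together: Bmp15, Nlrp5, Ooep and Dppa3 had log2 fold changes of -0.17, -0.11, -0.19 and -0.14 and were not called. Gdf9, Bmp15, Zp1, Zp2 and Zp3 are on both this list and the substrate lists. In the second series the sum was 6190 to 9550 CPM in alpha-amanitin embryos and 7220 to 8430 CPM in controls, against 11900 to 12800 CPM in oocytes. Markers of cumulus cells, which surround the oocyte and also express Serpine2, summed to 22.9 to 40.9 CPM in 10058-F4 embryos against 12.9 to 55.4 CPM in controls, and to 9.09 to 55.1 CPM in alpha-amanitin embryos and 11 to 62.5 CPM in controls, against 24.4 to 81.2 CPM in oocytes. The cumulus genes Areg and Ereg had no count in any library. Others of the list were counted: group means were 10.7 to 17.2 CPM for Cyp19a1 and 10.1 to 16.2 CPM for Runx2. Vcan averaged 15.1 CPM in oocytes and 0 in second-series controls. Tnfaip6 averaged 3.89 CPM in oocytes and 0 in every embryo group, and Ptgs2 3.69 CPM against at most 1.14 CPM. By library the oocyte sums were 27.2, 24.4, 81.2 and 57.7 CPM, with Plau counts only in replicates 3 and 4. Alpha-amanitin embryos were at 41.4, 55.1, 36.6 and 9.09 CPM, with Plau in replicates 1 and 3. The second-series control with Plau, replicate 2, had the lowest sum of its group, 11 CPM. A link of Plau to these markers was not tested. Of the 16 cumulus markers, 10, 11, 10, 7 and 11 had counts in 10058-F4 embryos, their controls, alpha-amanitin embryos, their controls and oocytes. The 10 sperm markers, few of them with counts, summed to 8.46 to 18.3 CPM (median 13.1) in 10058-F4 embryos, against 5.08 to 11 CPM (median 6.37) in controls, the same direction as Furin and Plat. The 2 tested there, Prm2 (9.53 against 5.88 CPM) and Ldhc (2.89 against 1.05 CPM), were not called (edgeR adjusted p = 0.161 and 0.445). In unfertilised oocytes Prm2 averaged 10.9 CPM. The sperm markers summed to 4.38 to 22.8 CPM in alpha-amanitin embryos and 10.8 to 20.8 CPM in controls, against 5.49 to 18.8 CPM in oocytes, and Tnp1, Tnp2, Smcp and Gapdhs had no count. The part of these markers in the results above was not tested, and since CPM are shares of a library, less RNA per embryo of all genes together would not be seen.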

How the data were processed

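RNA of directly lysed MII oocytes and 1-cell embryos was made into stranded total-RNA libraries with the SMARTer Pico Input kit, per the labels' protocols. Per the submitters' processing notes, cutadapt 1.7.1, STAR 2.5.0a and GRCm38 were used; which tool counted the reads, with which strand setting and annotation release, is not stated in any source used here. The deposited table holds the authors' raw counts per Ensembl gene, without normalization. Of its rows, 55141 matched a GENCODE vM21 symbol; the 260 others held 0.00563% of counts. The 7 genes and all gene lists were chosen with earlier results of these data known.

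Genes were tested with edgeR 4.0.16 (R 4.3.3): quasi-likelihood F tests, TMM scaling, a low-count filter (minimum count 10, minimum total 15), and Benjamini-Hochberg adjustment over all genes tested, with a threshold of 0.05. SEs were derived from the fold change and F. The 10058-F4 comparison used its own 14 libraries, and the 3 groups of the second series shared 1 fit. Plau, below the filter between series, had an exact permutation test on log2(CPM + 1). All 7 genes are described; up to 4 called genes per list with the smallest p are named, and Pcsk4, Mbtps1, Plaur, Plg, Gdf9, Bmp15 and Nodal always (1 further gene of this rule is not reported here); Pcsk1 and the marker genes were named after their values were seen. No 2 libraries of a group agreed within counting noise. Alternatives were RLE scaling, no filter, DESeq2 1.42.0, limma 3.58.1 voom, 1 fit of all libraries, a replicate block and leaving out each library.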

Additional observations from a re-analysis of the deposited data

Results flagged for a closer look

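Among 33 sets of values, each 1 gene in 1 group of 4 or 7 libraries, 3 held a library far from the others of its group. For normally distributed values chance alone flags about 1 in 20 sets. The sets share libraries and some hold zeros, so that rate is only a rough guide. Furin was at 112 CPM in replicate 3 of the alpha-amanitin series' control embryos, and the nearest of the other controls was at 158 CPM. Plat was at 465 CPM in replicate 7 of the 10058-F4 embryos, and the nearest was at 331 CPM. Plau was at 5.87 CPM in replicate 2 of the alpha-amanitin series' control embryos, and the others were at 0, a pattern that is always flagged.

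The effect of 10058-F4 differed from that of alpha-amanitin for 2 of the 7 genes, beside 1.04% of all genes called in either direction. The difference was 2.26 on the log2 scale for Furin (edgeR adjusted p = 1.35e-07) and 0.90 for Plat (edgeR adjusted p = 0.0357). For both genes, all 7 libraries of 10058-F4 embryos were above all 7 of controls. The share of all genes whose groups separate in this way was not computed, here or for the other comparisons above. The Plat call was lost in 14 of the 22 fits that left out 1 library, with limma voom (adjusted p = 0.062) and with the replicate block (adjusted p = 0.125).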

How the results depend on the processing

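The counts of the 7 genes called with 10058-F4 (2), with alpha-amanitin (0), between control embryos and oocytes (2), between alpha-amanitin embryos and oocytes (2) and between control embryos of the series (0) did not move in any fit that left out 1 library. Furin with 10058-F4 stayed between 1.72 and 1.83 in those fits, and Plat between 0.58 and 0.72. In the difference of the inhibitor effects, 1 or 2 genes were called when a library was left out, and 1 (Furin) with limma voom (Plat 0.86, adjusted p = 0.062) and with the replicate block (Plat 0.88, adjusted p = 0.125). Between control embryos of the series, DESeq2 and limma voom each called 1 gene, Pcsk7 (-3.37, adjusted p = 0.0314, and -4.86, adjusted p = 0.0429). Over all genes they called 1372 and 827 there, against 580 in the main edgeR fit.

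Signs turned only for fold changes that no fit called. Pcsk6 with 10058-F4 was 0.29 with the replicate block, Pcsk7 -0.09 with limma voom, and Serpine2 -0.02 with RLE scaling, -0.02 with DESeq2 and -0.01 in 1 fit of all 26 libraries. For alpha-amanitin against control embryos, Plau was 1.09 with limma voom and 4.84 with the replicate block. Leaving out alpha-amanitin replicates 1 and 3 together, chosen after the data were seen because they had the extreme depths, gave Pcsk5 -0.31 against controls and -0.36 against oocytes. Pcsk6 in alpha-amanitin embryos against oocytes was -0.07 with limma voom. Leaving out 1 library gave, with 10058-F4, -0.34 to 0.26 for Pcsk6 and -0.03 to 0.03 for Serpine2; with alpha-amanitin, -0.10 to 0.63 for Pcsk5 and -1.18 to 7.42 for Plau; in control embryos against oocytes, -0.44 to 0.27 for Pcsk5 and -9.08 to 0.47 for Plau; in alpha-amanitin embryos against oocytes, -0.15 to 0.38 for Pcsk5 and -0.28 to 1.52 for Pcsk6; and -0.25 to 0.08 for Plat between control embryos of the series. The cause was not tested.

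No pairing by shared replicate numbers was seen in the counts. With 10058-F4, deviations of same-numbered libraries correlated at -0.039 to 0.074, and for 1 of 6 numbers the library of the same number was the best match. Such values do not show that same-numbered libraries were prepared apart. With the block, 992 genes were called with 10058-F4 in place of 1418, and 44 in place of 165 in the difference of effects. Over all genes, alpha-amanitin against control embryos gave 4 calls, but 89 without the filter, 10 with limma voom, 123 with DESeq2, 103 in 1 fit of all libraries and 0 with the block. Pcsk6, Pcsk7 and Plau reach 0 counts in single libraries, deep ones among them, and whether depth has a part in their spread was not tested.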

Other observations

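Of the inhibitors in the plasminogen list, Serpini1 (neuroserpin, an inhibitor of Plat) is named here after its values were seen. It averaged 10 ± 10.5 CPM in alpha-amanitin embryos and 7.95 ± 5.95 CPM in their controls, against 48.1 ± 9.92 CPM in MII oocytes (SD, n = 4 each). The log2 fold change of control embryos over oocytes, -2.60, did not pass the threshold (edgeR adjusted p = 0.206). In the first series it averaged 10.5 ± 2.49 CPM in 10058-F4 embryos and 6.34 ± 1.62 CPM in controls (SD, n = 7 each), and that difference of 0.74 was not called either (edgeR adjusted p = 0.0934).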
